A study of Arabidopsis thaliana with 4 samples.

Results

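The genes described here are 10 genes of phloem differentiation in Arabidopsis thaliana: SMXL5, APL, NAC045, NAC086, NEN4, CALS7, SEOR1, SEOR2, SUC2 and PP2-A1. They were chosen by locus code from known roles in phloem, with earlier results of these data known. All 10 had a row among the 23922 loci of the count table. RNA-seq was done on callus, a mass of dividing cells, that had formed on hypocotyl pieces. The groups were callus labelled plt1 plt2, a double mutant of the root stem cell regulators PLETHORA1 and PLETHORA2 (2 libraries), and callus labelled wild type Col-0 (2 libraries). Seedlings of both groups had grown in darkness for 9 days, the pieces stood in continuous light on callus induction medium up to day 6 by the stage label, and each RNA sample pooled many calli. The medium held sucrose at 2%, kinetin at 0.2 µM and 2,4-D, a synthetic auxin, at 11 µM. The mutant alleles are not given in the sources used here. Whether the libraries of a label were grown as separate cultures is not stated; p-values therefore reflect how far these libraries differed, which may be technical. Coordinates are those of TAIR10.1.

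The phloem carries sugars through sieve elements, cells that lose their nucleus and stay joined by pores in sieve plates, and each sieve element is served by a companion cell that loads sucrose. Callus on an auxin-rich medium arises from cells around the vascular tissue and resembles a young root primordium, while the explant below it keeps its own vascular strand. SMXL5 and the MYB-type factor APL act early, APL switches on NAC045 and NAC086, and these NAC factors switch on exonuclease genes such as NEN4 for the loss of the nucleus. CALS7 makes the callose of sieve plate pores, SEOR1 and SEOR2 form the protein filaments inside sieve elements, SUC2 is the sucrose-proton symporter of companion cells, and PP2-A1 is a phloem lectin.

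The libraries held 63209401 and 53907649 counted reads for the label plt1 plt2, and 59049542 and 57254672 for the label wild type. The callus and root primordium markers were present in every library: WOX5 had 162 and 154 CPM (reads relative to a library size scaled by TMM) in libraries labelled plt1 plt2, against 133 and 143 CPM in those labelled wild type. Of the disrupted genes, PLT1 had 122 and 128 CPM in libraries labelled plt1 plt2, against 171 and 166 CPM in those labelled wild type. PLT2 had 182 and 180 CPM in libraries labelled plt1 plt2, against 63.1 and 62.1 CPM in those labelled wild type. PLT2 reads thus went against the label that names its disruption, and since counts per gene do not show where in a gene reads lie, every direction below rests on the labels.

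Of the 7 phloem genes with enough reads to test, 3 were called lower in callus labelled plt1 plt2 and 0 higher, where 5.86% of all genes tested were called lower and 4.63% higher. SEOR2 and SEOR1 were at 0.310 and 0.381 times the wild type level, and SUC2 was at 0.695 times it. The SUC2 call was lost by DESeq2 (adjusted p = 0.12), with the replicate number as a block (edgeR, 0.0595) and when either library labelled wild type was left out, and the SEOR1 call was lost in these last fits. SMXL5, CALS7 and PP2-A1 were at 1.08, 1.07 and 0.953 times the wild type level, with 95% intervals of 0.989 to 1.17, 0.905 to 1.26 and 0.689 to 1.32 that include 1. NAC045, NAC086 and NEN4 were close to the limit of detection in every library. In bulk callus, fewer phloem cells and less of these RNAs per phloem cell cannot be told apart.

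**Figure D1:**
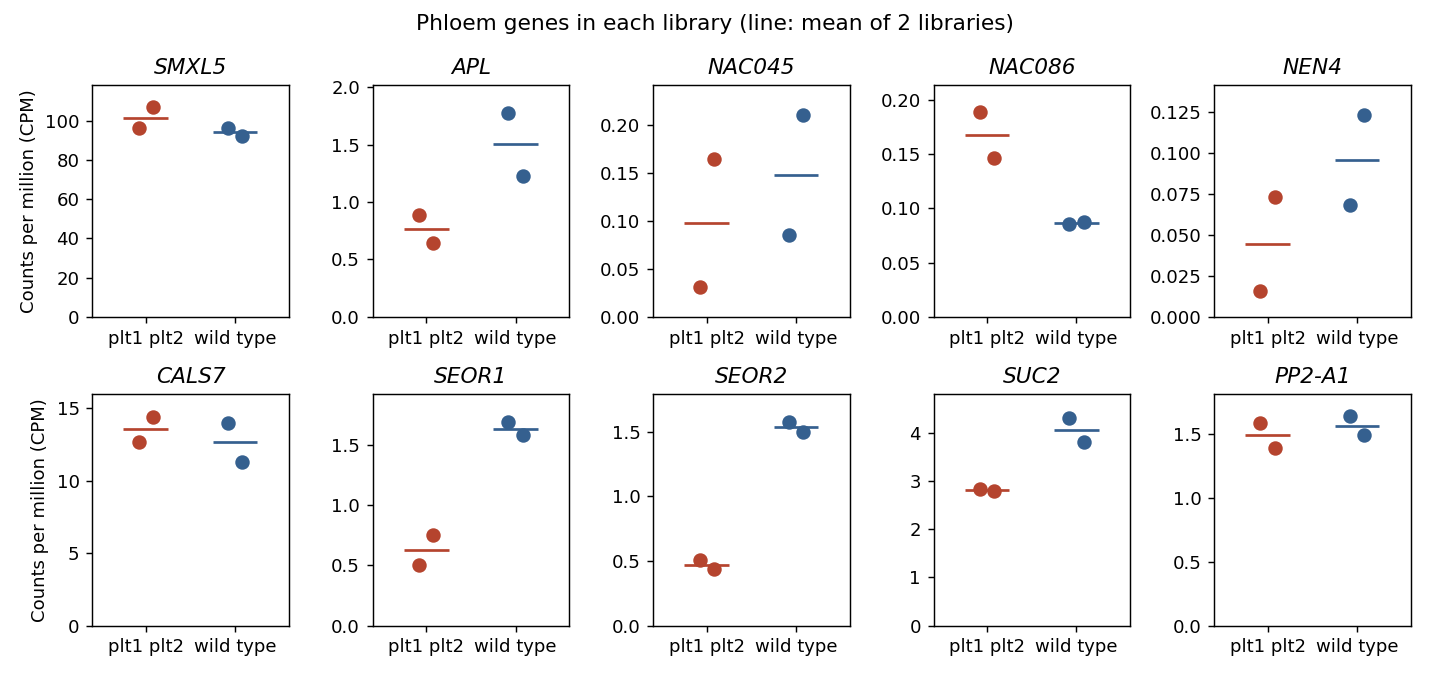
Level of each of the 10 genes in each library, in CPM on axes that start at 0, with libraries labelled plt1 plt2 on the left and those labelled wild type on the right; points are libraries and lines are means of 2. For APL, SEOR1, SEOR2 and SUC2 both points on the left lie below both on the right.

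The counts were tested with edgeR's quasi-likelihood test over all genes that passed a filter on low counts, with Benjamini-Hochberg adjustment over all of them and a call at an adjusted p below 0.05. Of the 10 genes 7 passed the filter; NAC045, NAC086 and NEN4 did not. The filter left 19325 genes in all. At an unadjusted edgeR p below 0.05 the counts over the 7 genes were 4 lower and 0 higher, against 2545 lower and 2207 higher of all 19325. DESeq2 called 2 of the 7 lower and 0 higher, against 4.95% lower and 3.67% higher over all genes tested. Both libraries labelled plt1 plt2 lay below both labelled wild type for 4 of the 7, against 27.7% of all genes tested, and above them for 1 of the 7, against 27%. The median log2 fold change (plt1 plt2 over wild type) was -0.53 over the 7 genes and -0.00 over all genes tested.

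The sequences before the start sites of the 3 called genes and APL are shown because these 4 genes had both libraries labelled plt1 plt2 below both labelled wild type; each is the 250 bases upstream of the annotated start in RefSeq's TAIR10.1, read 5′ to 3′ on the gene's own strand, and none overlaps another annotated gene. They lie at chr3:246942-247191 (SEOR2, plus strand), chr3:251618-251867 (SEOR1, plus strand), chr1:8033157-8033406 (SUC2, minus strand) and chr1:29879280-29879529 (APL, minus strand). Capitals mark AAAG or its reverse complement CTTT, the core bound by DOF transcription factors, several of which act in phloem.
SEOR2: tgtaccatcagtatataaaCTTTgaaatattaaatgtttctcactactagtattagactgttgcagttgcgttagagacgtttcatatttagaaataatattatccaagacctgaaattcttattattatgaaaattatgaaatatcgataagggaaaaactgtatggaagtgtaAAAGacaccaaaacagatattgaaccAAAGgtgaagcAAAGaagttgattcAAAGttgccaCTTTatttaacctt
SEOR1: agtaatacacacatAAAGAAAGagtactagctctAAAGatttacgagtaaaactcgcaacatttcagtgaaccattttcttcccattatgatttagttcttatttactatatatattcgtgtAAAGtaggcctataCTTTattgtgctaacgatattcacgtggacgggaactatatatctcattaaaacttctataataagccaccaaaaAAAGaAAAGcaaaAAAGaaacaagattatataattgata
SUC2: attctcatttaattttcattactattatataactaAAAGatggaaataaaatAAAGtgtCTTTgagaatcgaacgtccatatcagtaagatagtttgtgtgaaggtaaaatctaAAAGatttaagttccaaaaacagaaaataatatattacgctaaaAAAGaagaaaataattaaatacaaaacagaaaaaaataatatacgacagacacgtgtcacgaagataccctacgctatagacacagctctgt
APL: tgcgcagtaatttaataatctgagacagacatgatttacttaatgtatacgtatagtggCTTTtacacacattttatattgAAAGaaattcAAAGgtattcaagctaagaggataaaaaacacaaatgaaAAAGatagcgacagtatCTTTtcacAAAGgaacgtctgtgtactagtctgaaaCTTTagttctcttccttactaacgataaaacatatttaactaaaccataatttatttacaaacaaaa

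The DOF core occurred 6 times before SEOR2, 8 times before SEOR1, 5 times before SUC2 and 7 times before APL, counting both strands. It is a short motif, present in 98.0% of 27443 such windows of protein-coding nuclear genes with a median of 4 matches, and 24.3%, 7.14%, 39.4% and 13.6% of all windows held at least as many as SEOR2, SEOR1, SUC2 and APL. Of the other 6 genes, NEN4 held 11 matches, the most of the 10 and a number reached by 0.703% of all windows, SMXL5 held 9, NAC086 6, NAC045 4, and CALS7 and PP2-A1 2 each. The PP2-A1 window lies wholly inside the neighbouring gene AT4G19830, and those of NEN4 and CALS7 overlap a neighbouring gene by 109 and 30 bases. The core CACG of NAC factor sites, searched on both strands and overlapping itself in CACGTG, occurred 3 times before SEOR1 and SUC2 and 0 times before SEOR2 and APL, and 45.6% of all windows held at least 1. A match in these windows is a description of letters and does not show binding.

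The early regulators differed from each other in level and in change. SMXL5 (AT5G57130; chromosome 5, 23144947 to 23149615, plus strand), a member of the SMAX1-LIKE family needed with SMXL3 and SMXL4 for phloem formation, had 6107 and 5830 reads in libraries labelled plt1 plt2, against 5625 and 5255 reads in those labelled wild type. These are 96.3 and 107 CPM against 96.2 and 92.4 CPM, so both libraries labelled plt1 plt2 were above both labelled wild type, by a narrow margin. Its log2 fold change was 0.11 ± 0.06 (SE, n = 2 per group; 95% interval -0.02 to 0.23; edgeR adjusted p = 0.272), and it was called higher without the library labelled plt1 plt2 1 (0.18, edgeR adjusted p = 0.0301).

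APL (AT1G79430; chromosome 1, 29877228 to 29879279, minus strand), the factor that gives phloem its identity, had 56 and 35 reads in libraries labelled plt1 plt2, against 104 and 70 reads in those labelled wild type. That is 0.883 and 0.641 CPM against 1.78 and 1.23 CPM, and the groups did not overlap. The log2 fold change was -0.97 ± 0.29 (SE; 95% interval -1.61 to -0.33) and was not called (edgeR adjusted p = 0.0604; unadjusted p = 0.00702). It was called with no filter on low counts (adjusted p = 0.026), with a filter at a mean of 50 reads (0.048) and without the library labelled plt1 plt2 1 (0.00593), and its adjusted p by DESeq2 was 0.105.

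The genes for loss of the nucleus were barely detected. NAC045 (AT3G03200; chromosome 3, 734892 to 738629, minus strand) had 2 and 9 reads in libraries labelled plt1 plt2, against 5 and 12 in those labelled wild type, and it overlaps a gene on the other strand. NAC086 (AT5G17260; chromosome 5, 5675184 to 5678175, minus strand) had 12 and 8 reads in libraries labelled plt1 plt2, against 5 in each of those labelled wild type. NEN4 (AT4G39810; chromosome 4, 18474481 to 18475804, minus strand) had 1 and 4 reads in libraries labelled plt1 plt2, against 4 and 7 in those labelled wild type. The groups overlapped for NAC045 and NEN4 and not for NAC086, which was above. Summed over the libraries of a label and scaled by their size, the ratio of plt1 plt2 to wild type was 0.632 for NAC045 (exact 95% interval 0.268 to 1.43), 1.95 for NAC086 (0.873 to 4.68) and 0.444 for NEN4 (0.121 to 1.39). The intervals cover counting error only and all include 1, so no difference was detectable at this depth. With no filter on low counts edgeR called 0 of the 3 (adjusted p of 0.739, 0.581 and 0.644 for NAC045, NAC086 and NEN4).

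The filament genes changed most. SEOR2 (AT3G01670, named SEOa in RefSeq) and SEOR1 (AT3G01680) lie next to each other on the plus strand of chromosome 3, at 247192 to 250472 and 251868 to 255513 in TAIR10.1, with 1395 bases between them. SEOR2 had 32 and 24 reads in libraries labelled plt1 plt2, against 92 and 85 reads in those labelled wild type, or 0.505 and 0.439 CPM against 1.57 and 1.495 CPM. The groups lay far apart compared with the spread inside either. Its log2 fold change was -1.69 ± 0.27 (SE; 95% interval -2.30 to -1.08; edgeR adjusted p = 0.0029), and 0.693% of all genes tested had a value as low or lower. The call held under each of the 10 alternative settings tried, with an adjusted p of at most 0.0325.

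SEOR1 had 32 and 41 reads in libraries labelled plt1 plt2, against 99 and 90 reads in those labelled wild type, or 0.505 and 0.751 CPM against 1.69 and 1.58 CPM. Here too both libraries labelled plt1 plt2 were below both labelled wild type. The log2 fold change was -1.39 ± 0.27 (SE; 95% interval -2.004 to -0.78; edgeR adjusted p = 0.00897). When the library labelled wild type 1 was left out the log2 fold change was -1.34 and was no longer called (edgeR adjusted p = 0.0721). Leaving out wild type 2 gave -1.44 and again no call (0.0503).

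CALS7 (AT1G06490; chromosome 1, 1978378 to 1989409, plus strand), a callose synthase, had 804 and 786 reads in libraries labelled plt1 plt2, against 819 and 643 reads in those labelled wild type. That is 12.7 and 14.4 CPM against 14.0 and 11.3 CPM, and the groups overlapped. The log2 fold change was 0.09 ± 0.11 (SE; 95% interval -0.14 to 0.33; edgeR adjusted p = 0.648), and its sign turned without the library labelled wild type 2 (-0.05).

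Of the companion cell genes SUC2 was called lower and PP2-A1 was not called. SUC2 (AT1G22710; chromosome 1, 8030587 to 8033156, minus strand) had 180 and 152 reads in libraries labelled plt1 plt2, against 251 and 216 reads in those labelled wild type, or 2.84 and 2.78 CPM against 4.29 and 3.80 CPM. The groups did not overlap. The log2 fold change was -0.53 ± 0.15 (SE; 95% interval -0.85 to -0.20; edgeR adjusted p = 0.0482), just inside the threshold. DESeq2 did not call it (adjusted p = 0.12), nor did edgeR when the library labelled wild type 1 (0.256), wild type 2 (0.111) or plt1 plt2 2 (0.0512) was left out.

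PP2-A1 (AT4G19840; chromosome 4, 10773804 to 10775942, plus strand), the phloem lectin, had 101 and 76 reads in libraries labelled plt1 plt2, against 96 and 85 reads in those labelled wild type. At 1.59 and 1.39 CPM against 1.64 and 1.495 CPM the groups overlapped. The log2 fold change was -0.07 ± 0.21 (SE; 95% interval -0.54 to 0.40; edgeR adjusted p = 0.885), with a sign that turned without the library labelled plt1 plt2 2 (0.02). PP2-A1 overlaps a gene on the other strand, whose reads cannot be told from its own, since strand use is not stated.

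**Figure D2:**
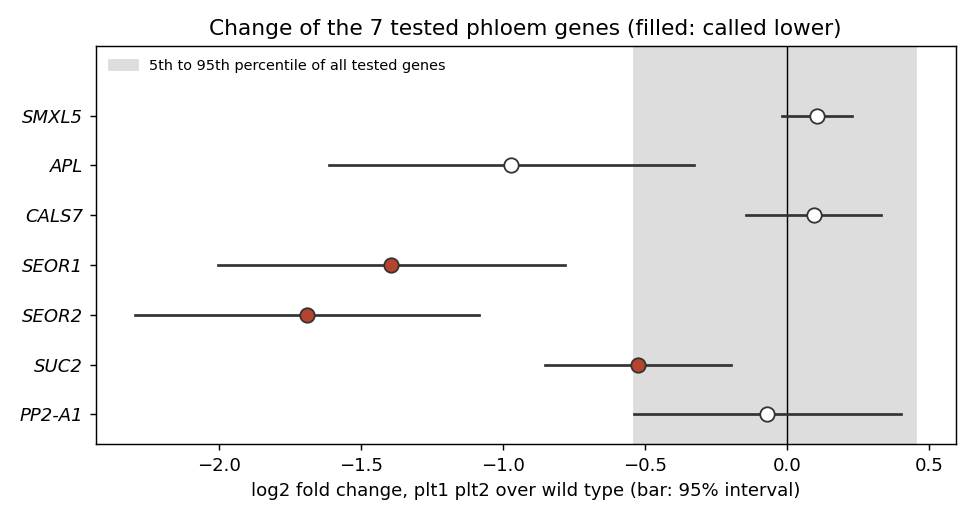
Log2 fold change of plt1 plt2 over wild type for the 7 tested genes, with bars for 95% intervals; filled points were called lower by edgeR and the grey band spans the 5th to 95th percentile of all tested genes, -0.54 to 0.46. SEOR1 and SEOR2 lie outside the band with their whole intervals.

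Levels of different genes were compared per exon length as RPKM, the CPM divided by exon length in kilobases. SMXL5 was highest, at 26.4 and 29.2 RPKM in libraries labelled plt1 plt2, against 26.3 and 25.3 RPKM in those labelled wild type. CALS7 came next at 1.94 and 2.20 RPKM against 2.14 and 1.73 RPKM, and then SUC2 at 1.39 and 1.36 RPKM against 2.10 and 1.85 RPKM. CALS7 stood clear of SUC2 in libraries labelled plt1 plt2, while the 2 genes overlapped in those labelled wild type. Below them PP2-A1 had 1.05 and 0.919 RPKM against 1.08 and 0.988 RPKM, and APL had 0.551 and 0.400 RPKM against 1.11 and 0.768 RPKM. PP2-A1 and APL overlapped in libraries labelled wild type and not in those labelled plt1 plt2. SEOR1 had 0.190 and 0.283 RPKM in libraries labelled plt1 plt2, against 0.638 and 0.596 RPKM in those labelled wild type, and SEOR2 had 0.182 and 0.158 RPKM against 0.567 and 0.539 RPKM. NEN4, NAC086 and NAC045 were lowest, between 0.0113 and 0.128 RPKM over all libraries, and the order among these 3 is not resolved.

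**Figure D3:**
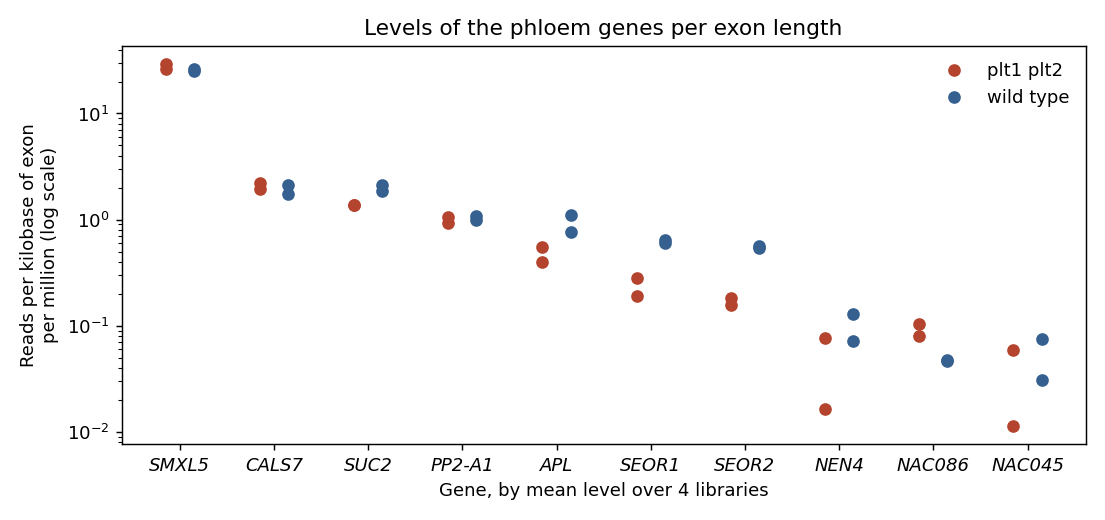
Level per exon length of the 10 genes in RPKM on a log axis, in order of their mean over 4 libraries; each point is 1 library, with plt1 plt2 left of wild type for each gene. The levels run from 29.2 RPKM for SMXL5 down to 0.0113 RPKM for NAC045.

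Ratios of 2 genes within a library do not depend on how libraries are scaled. SEOR2 over SUC2, per exon base, was 0.131 and 0.117 in libraries labelled plt1 plt2, against 0.270 and 0.290 in those labelled wild type. SUC2 over CALS7 was 0.716 and 0.618 in libraries labelled plt1 plt2, against 0.980 and 1.07 in those labelled wild type. In both ratios the groups were apart, and the two-sided exact permutation p was 0.333 (0.5 after Benjamini-Hochberg adjustment over the 9 ratios computed). That is the smallest p that 2 against 2 libraries allow, so the test cannot show a difference. The groups were also apart, at the same p, for SEOR1 over SUC2, APL over SUC2, SEOR2 over APL and PP2-A1 over SUC2. Of these, PP2-A1 over SUC2 was higher in libraries labelled plt1 plt2 and the others were lower. SEOR1 over SEOR2 was 1.05 and 1.79 in libraries labelled plt1 plt2, against 1.12 and 1.11 in those labelled wild type, and the spread between the libraries labelled plt1 plt2 exceeded any difference between labels (exact permutation p = 1). CALS7 over SMXL5 was 0.0734 and 0.0752 in libraries labelled plt1 plt2, against 0.0812 and 0.0682 in those labelled wild type, with groups that overlapped.

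Over 3 further lists of phloem genes, 27 of 34 genes were tested, and 2 were called higher and 2 lower, beside the 4.63% higher and 5.86% lower over all genes tested. Their median log2 fold change was -0.03, with 13 genes above 0 and 14 below. Of 12 tested early protophloem regulators, 1 was called higher and 2 lower, with a median log2 fold change of 0.01. SMXL4, a relative of SMXL5, fell to 1.59 CPM in both libraries labelled plt1 plt2, against 2.98 and 2.44 CPM in those labelled wild type (log2 fold change -0.77 ± 0.19, edgeR adjusted p = 0.0281). The third relative, SMXL3, had 50.1 and 53.9 CPM in libraries labelled plt1 plt2, against 48.0 and 47.8 CPM in those labelled wild type, and was not called (log2 fold change 0.12, edgeR adjusted p = 0.187). The receptor kinase gene BAM3, which restrains protophloem formation when it binds CLE45, fell to 50.5 and 58.9 CPM in libraries labelled plt1 plt2, against 71.2 and 65.8 CPM in those labelled wild type (-0.33 ± 0.07, edgeR adjusted p = 0.0144). CRN, a pseudokinase gene needed for responses to CLE peptides, rose to 37.9 and 35.4 CPM in libraries labelled plt1 plt2, against 32.3 and 30.8 CPM in those labelled wild type (0.22 ± 0.06, edgeR adjusted p = 0.0365), and it overlaps genes on the other strand. Leaving out wild type 1 ended the calls of SMXL4, BAM3 and CRN (edgeR adjusted p = 0.199, 0.109 and 0.0807), and leaving out wild type 2 those of SMXL4 and CRN (0.056 and 0.224). DESeq2 did not call SMXL4 or CRN (adjusted p = 0.0525 and 0.0797), and CRN was also not called when plt1 plt2 1 was left out (0.13).

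Of 6 tested genes in the DOF list, edgeR and DESeq2 called 0 in either direction, with 2 lower and 0 higher at an unadjusted p below 0.05 and a median log2 fold change of -0.03. Over all 19325 genes tested, 2545 were lower and 2207 higher at that unadjusted edgeR p. TMO6, a vascular target of the auxin response factor MONOPTEROS, had 124 and 139 CPM in libraries labelled plt1 plt2, against 128 and 132 CPM in those labelled wild type (0.01, edgeR adjusted p = 0.917), and its sign turned without wild type 1 (-0.01) or plt1 plt2 2 (-0.07). OBP2 had 14.0 and 14.9 CPM in libraries labelled plt1 plt2, against 13.8 and 12.9 CPM in those labelled wild type (0.11, edgeR adjusted p = 0.407).

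Of 9 tested further genes of sieve elements and companion cells, 1 was called higher and 0 lower by edgeR, with 1 higher and 2 lower at an unadjusted p below 0.05, 0 by DESeq2 and a median of -0.09. Over all 19325 genes tested, edgeR called 4.63% higher and 5.86% lower, and DESeq2 3.67% and 4.95%. At the unadjusted edgeR p, 2207 of them were higher and 2545 lower. AHA3, a proton pump gene known from companion cells, rose to 61.8 and 78.3 CPM in libraries labelled plt1 plt2, against 55.1 and 51.3 CPM in those labelled wild type (0.40 ± 0.09, edgeR adjusted p = 0.0198). DESeq2 did not call it (adjusted p = 0.176), and leaving out wild type 1 (0.0549) or wild type 2 (0.131) ended the edgeR call. CHER1, a choline transporter-like gene that acts in sieve plate formation, had 72.5 and 73.5 CPM in libraries labelled plt1 plt2, against 71.4 and 71.1 CPM in those labelled wild type (0.03, edgeR adjusted p = 0.677). AKT2, PP2-A2, SULTR1;3 and BAM5 had at most 2 reads in any library and were not tested. SWEET11 and SWEET12 of this list, and CLE45 of the early protophloem regulators, had no row in the count table.

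Several relatives of the 10 genes had higher levels per exon length. The exonuclease genes NEN1 and NEN2 averaged 3.60 and 3.07 RPKM over the 4 libraries, where NEN4 averaged 0.0728 RPKM. Of the sucrose transporters, SUC3 averaged 8.75 RPKM and SUC4 7.47 RPKM, where SUC2 averaged 1.67 RPKM. CALS3, the callose synthase known for plasmodesmata, averaged 87.1 RPKM, where CALS7 averaged 2.00 RPKM. Other relatives were lower than these genes: SUC5 averaged 0.0659 RPKM, and the callose synthase genes CALS5 and GSL04 averaged 0.101 and 1.39 RPKM. At an unadjusted edgeR p below 0.05, 4 of 16 tested relatives were higher and 0 lower, beside 2207 higher and 2545 lower of all 19325 genes tested. DESeq2 called 1 relative higher and 0 lower, beside 3.67% and 4.95% of all genes tested. The edgeR calls were likewise 1 relative higher and 0 lower, beside 4.63% and 5.86% of all genes tested. The called gene was GSL03 (AT2G31960), at 163 and 167 CPM in libraries labelled plt1 plt2, against 152 and 138 CPM in those labelled wild type (0.19 ± 0.05, edgeR adjusted p = 0.0426). Leaving out wild type 2 ended that call (adjusted p = 0.314), and GSL03 overlaps a gene on the other strand.

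**Figure D4:**
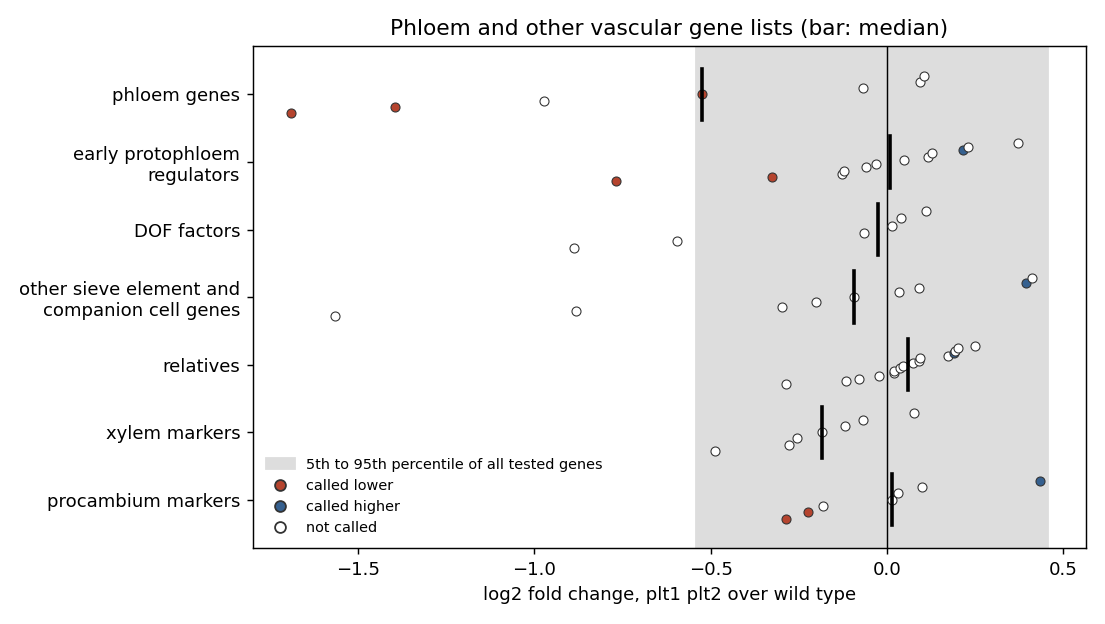
Log2 fold change of plt1 plt2 over wild type for tested genes of 7 lists, 1 point per gene, red for called lower, blue for called higher and white for not called, with black bars for list medians; the grey band is the 5th to 95th percentile of all tested genes. The median of the 10 chosen phloem genes, over the 7 tested, was -0.53, and those of the other lists lay between -0.19 and 0.06.

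Markers of the other vascular tissues were read beside these results. Over all 19325 genes tested, edgeR called 4.63% higher and 5.86% lower, and DESeq2 3.67% and 4.95%. At an unadjusted edgeR p below 0.05, 2207 of them were higher and 2545 lower. Of 7 tested xylem markers edgeR and DESeq2 called 0 in either direction, with 1 lower and 0 higher at an unadjusted p below 0.05, and the median was -0.19. The summed level of the 9 xylem markers was 404 and 407 CPM in libraries labelled plt1 plt2, against 382 and 396 CPM in those labelled wild type; most of it was ACL5, and the vessel regulators VND6 and VND7 had at most 10 reads in any library. The cellulose synthase gene CESA7 of secondary walls had 6.51 and 6.32 CPM in libraries labelled plt1 plt2, against 7.25 and 8.07 CPM in those labelled wild type (-0.26, edgeR adjusted p = 0.167). Of 7 procambium markers 1 was called higher and 2 lower, and their sum was 377 and 376 CPM in libraries labelled plt1 plt2, against 402 and 396 CPM in those labelled wild type. TMO5 (-0.29, edgeR adjusted p = 0.00573) and LHW (-0.22, 0.00732), which encode partners in vascular cell division, fell. CLE44 (0.43, edgeR adjusted p = 0.000191), a gene for the peptide that holds back xylem differentiation, rose. CLE44 overlaps a gene on the same strand, and whether reads of that gene were counted with its own is not stated. LHW was not called when wild type 1 or wild type 2 was left out. Of 5 callus and root primordium markers LBD16 (0.28, edgeR adjusted p = 0.0157) and WOX5 (0.19, 0.0375) were called higher and SCR (-0.37, 0.000871) lower; leaving out wild type 1 ended the calls of LBD16 and WOX5 (adjusted p = 0.112 and 0.242), leaving out wild type 2 that of LBD16 (0.0514) and leaving out plt1 plt2 1 that of WOX5 (0.0604), which was also lost with the replicate number as a block (0.0578). The part of these tissues in the phloem result was not tested.

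The member count was read against the share of all genes called in the same fit. Most fits tested 7 of the 10 genes. With no filter on low counts 10 were tested, and with 1 library left out 8 or 9. The count of genes called lower was 3 of 7 with DESeq2 size factors in edgeR, where 5.94% of all genes tested were lower and 4.81% higher, and 3 with library totals alone (5.48% lower and 6.39% higher). It was 4 with no filter on low counts (5.74% lower and 4.67% higher), 4 with a minimum mean of 50 reads (6.25% and 5.06%) and 3 with the replicate number as a block (5.59% and 4.28%). DESeq2 called 4.95% of all genes lower and 3.67% higher. When wild type 1 was left out 1 gene was called lower (3.08% lower and 2.7% higher over all genes), and likewise 1 without wild type 2 (3.22% and 2.2%). The number was 4 without plt1 plt2 1 (8.89% and 6.48%) and 2 without plt1 plt2 2 (6.6% and 5.13%). SMXL5, without plt1 plt2 1, was the only gene of the 10 called higher under any of these settings.

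**Figure D5:**
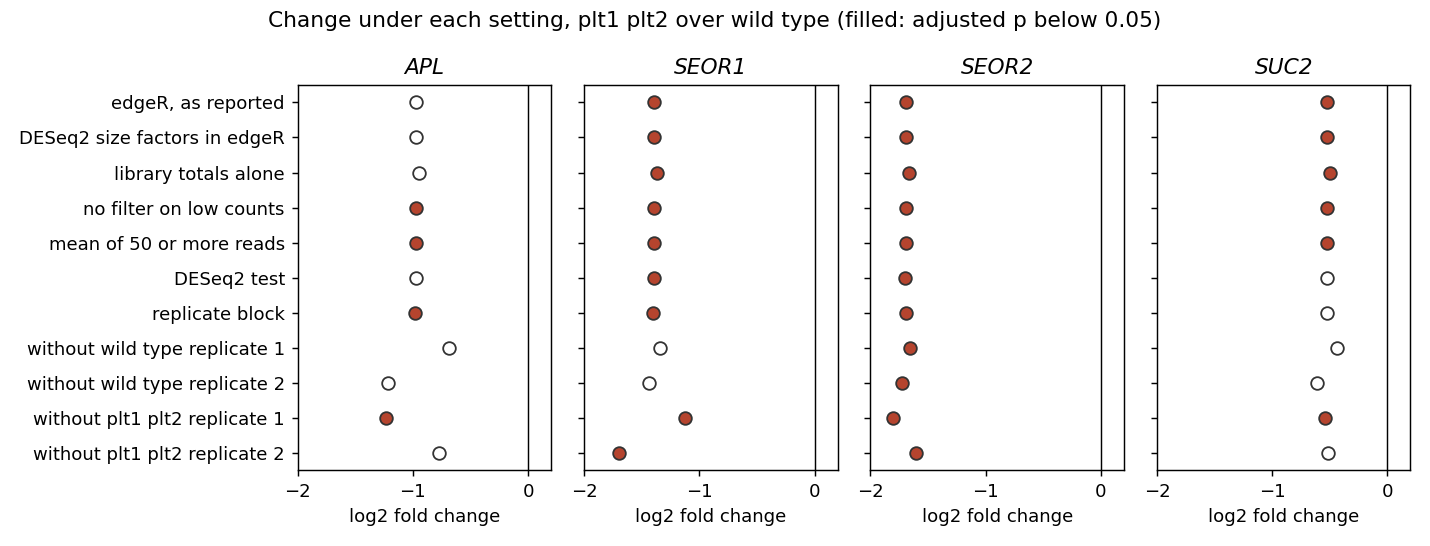
Log2 fold change of plt1 plt2 over wild type for APL, SEOR1, SEOR2 and SUC2 under the reported fit and 10 other settings; filled points have an adjusted p below 0.05. All points lie below 0, and SEOR2 is filled in every row. SUC2, SEOR1 and APL are open in both rows that leave out a wild type library, and APL is also open in the reported fit.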

How the data were processed

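RNA-seq read counts of 4 callus libraries, 2 labelled plt1 plt2 and 2 labelled wild type, were used. The values are raw counts per gene as deposited by the authors. Tools named in the submitters' processing notes are STAR 2.7.2b, Trim Galore 0.5.0 and DESeq2, with TAIR10 as the build; the counting tool, annotation and strand use are not given in the sources used here. The table names no genes beside locus codes, and 23755 of 23922 codes matched the RefSeq annotation of TAIR10.1, which gave symbols, coordinates and exon lengths. Counts were tested with edgeR 4.0.16 in R 4.3.3 (TMM scaling and filterByExpr, then glmQLFit and glmQLFTest on genotype alone), with Benjamini-Hochberg adjustment over 19325 genes. SE is the log2 fold change divided by the square root of F, and 95% intervals use its t distribution. DESeq2 1.42.0 was an alternative. The script was tested on simulated counts.

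The genes and lists were chosen with earlier results of these data known. Named genes are the 10 genes, PLT1 and PLT2, and of each other list up to 4 called genes of largest change, or the most abundant until 2 are named; genes named outside this rule were chosen after their values were seen. The lists were early protophloem regulators, DOF factors, sieve element and companion cell genes, relatives, xylem, procambium, and callus and root primordium markers; 3 loci whose listed names the reference does not give were left out. Of the exon bases of APL 3.12% matched elsewhere in the genome at 90% identity over 50 bases or more, and 0 of the other 9 genes had such a match. Each library counted as a sample. Within a label counts differed beyond Poisson noise (chi-square over degrees of freedom of 7.75 for plt1 plt2 and 5.34 for wild type). This spread does not show whether the libraries came from separate cultures. Depth was 53907649 to 63209401 reads, and 3 reads correspond to 0.0473 to 0.0549 CPM.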

Additional observations from a re-analysis of the deposited data

How the results depend on the processing

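Of the 7 tested phloem genes, 3 were called lower in the reported fit, and between 1 and 4 when 1 library was left out, with 1 without wild type 1 and 1 without wild type 2; 0 were called higher in the reported fit, and between 0 and 1 with 1 library left out. Some values near 0 turned sign when 1 library was left out: CALS7 ranged from -0.051 to 0.258 (negative without wild type 2), CALS3 from -0.032 to 0.112 (negative without wild type 2), PP2-A1 from -0.174 to 0.021 (at 0.00 without wild type 1, positive without plt1 plt2 2) and TMO6 from -0.073 to 0.095 (negative without wild type 1, at -0.011, or plt1 plt2 2). Over the wider phloem lists 2 genes were called higher and 2 lower; by DESeq2 these were 0 and 1, and with 1 library left out they ranged from 0 to 2 and from 0 to 3. Over all genes 894 were called higher and 1133 lower, and with 1 library left out these ranged from 433 to 1275 and from 606 to 1751. Leaving out a library leaves its label with 1, which is assumed to vary like the other label's libraries. The filter on low counts was applied anew in these fits, which tested 8 or 9 of the 10 phloem genes. PLT1 and PLT2 kept their call and direction under all 10 settings. Library totals in place of TMM moved the median of all genes by 0.02 on the log2 scale, and gave 1235 higher and 1059 lower.

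Same-numbered libraries did not deviate together over all genes (correlation of deviations for replicate 1 of -0.09). This correlation cannot show whether they shared a culture or batch that affected some genes. With the replicate number as a block, 828 genes were called higher and 1081 lower, 3 of the 7 phloem genes lower and 0 higher, and 2 of the wider lists higher and 2 lower. In that fit with the replicate block SUC2 had an adjusted p of 0.0595, APL one of 0.0404, GSL03 one of 0.0573 and WOX5 one of 0.0578, and PLT1 and PLT2 had log2 fold changes of -0.43 and 1.53.

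Read counts were low for some of the genes: APL, SEOR1 and SEOR2 rest on 24 to 104 reads per library, and NAC045, NAC086 and NEN4 on 1 to 12.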

Other observations

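Some uncalled genes of the wider phloem lists, named outside the naming rule after their values were seen, lay on both sides of 0. Over the 27 tested genes of these lists, both libraries labelled plt1 plt2 lay below both labelled wild type for 10 and above them for 10. Over all genes tested these shares were 27.7% below and 27% above. SUS5 and SUS6, which encode sucrose synthases found in sieve elements, had log2 fold changes of -1.57 ± 0.52 (SE; edgeR adjusted p = 0.0875) and -0.88 ± 0.29 (0.0904). SUS5 had 5 and 13 reads in libraries labelled plt1 plt2, against 28 and 25 reads in those labelled wild type, and SUS6 had 38 and 36 reads against 79 and 55 reads. DOF6 had 38 reads in each library labelled plt1 plt2, against 75 and 63 reads in those labelled wild type (-0.89 ± 0.28, edgeR adjusted p = 0.071). HCA2, known for promoting cambial activity, had 112 and 59 reads in libraries labelled plt1 plt2, against 121 and 129 reads in those labelled wild type (-0.59 ± 0.24, edgeR adjusted p = 0.162). On the other side, the sulfate transporter gene SULTR2;1 had 88 and 65 reads in libraries labelled plt1 plt2, against 66 and 46 reads in those labelled wild type (0.41 ± 0.27, edgeR adjusted p = 0.38). CLE26 had 32 and 20 reads in libraries labelled plt1 plt2, against 20 and 19 reads in those labelled wild type (0.37 ± 0.39, edgeR adjusted p = 0.612). BRX had 166 and 138 reads in libraries labelled plt1 plt2, against 140 and 113 reads in those labelled wild type (0.23 ± 0.18, edgeR adjusted p = 0.469).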
